A study of Mus musculus with 4 samples.

Results

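The 7 rows described here were grouped as ribosomal RNA (rRNA) and RNase MRP rows of the gene tables from mouse T helper 2 (Th2) cells. CT010467.1, Gm42418 and Gm26917 lie in an rRNA locus on chromosome 17, and Rmrp and Ccdc107 on chromosome 4. The short row Gm23935 lies on chromosome 16, and Lars2 on chromosome 9. In GENCODE vM21 only CT010467.1 of these is typed rRNA, and only Rmrp is the RNase MRP RNA. Ccdc107 and Lars2 are typed protein-coding and Gm23935 miRNA. The group is 7 of 50600 rows, and each symbol matched 1 row. The members were chosen by their read counts, for differences in count between the replicate libraries, so their levels and differences are given as a description. A row is an annotated gene on 1 strand, and its count is the number of read pairs that the counting assigned to that strand.

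The data came from primary Th2 cells of mouse strain C57BL/6NJ, sequenced as 1 group of 4 libraries that the labels number as biological replicates 1 to 4. The path in the file headers names 48 hours and a Th1/Th2 series of time points. All 4 libraries carry the same donor identifier and separate biosample identifiers, and age and sex are not given. Whether they came from separate cultures or animals is not stated, so the spread between libraries may be partly technical. The assay label says total RNA, while the linked library protocol is for polyadenylated RNA.

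Ribosomal RNA is made in the nucleolus by RNA polymerase I as a long precursor, from which cleavage and trimming release the mature rRNAs. RNase MRP is an RNA-protein enzyme that cuts this precursor, and its RNA subunit, encoded by Rmrp, is made by RNA polymerase III. Mutations of the human gene cause cartilage-hair hypoplasia, a growth disorder with T cell deficiency. Neither mature rRNA nor Rmrp normally carries a long poly(A) tail.

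The deposited totals were 1785970 to 2271993 counts per library, lowest in replicate 4, and 13557 to 14344 rows had a count. For a row without counts the limit is 3 counts, which is 1.32 to 1.68 CPM (the count over the library total, scaled per 1e6 counts). The T cell genes Cd3d (15 to 27 counts), Cd3e (6 to 20) and Cd4 (54 to 72), the Th2 cytokine gene Il4 (24 to 38) and the Th2 regulator Gata3 (20 to 44) had few counts on their rows. Of 12 markers of other cell types 6 were at 0 in all 4 libraries, among them Ms4a1, Itgam, Klrb1c, Hba-a1 and Epcam, while Cd8a, Lyz2 and Nkg7 had 0 or 1, Cd8b1 had 2 to 4 and the B cell gene Cd79a 4 to 14. Csf1r stood at 1066 to 1457 counts on a row that shares 871 bp with Hmgxb3 on the other strand.

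Which strand a count stands for bears on every value here. Gm48719, opposite Cd3e, had 1692 to 2361 counts, and Gm13256, opposite Gata3, had 2048 to 2625. Over all rows, 1027 noncoding rows had 1 protein-coding gene as their sole overlap, on the other strand and over 50 bp or more, with a mean of at least 20 counts in the pair. The noncoding row held more counts in every library in 843 of these pairs (82.1%), and the protein-coding row in 164. The 4801 protein-coding rows whose exons meet those of an opposite-strand row had a median of 8.5 counts per library, against 0.25 for the 16963 without. Most counts thus lie on rows opposite an annotated gene, and the count of a row here may stand for RNA of the strand opposite to it. Whether strand setting 1 matches the library kit is not given in the labels, and how the kit marks strand was not tested.

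Sequence and position set the rows in 2 opposite-strand pairs. CT010467.1 (ENSMUSG00000106106.2, typed rRNA in GENCODE vM21) lies on the minus strand of chromosome 17 from 39846353 to 39848827 (mm10), with 2466 exon bases. Gm42418 (ENSMUSG00000098178.1), a long noncoding RNA row, lies on the plus strand from 39846958 to 39848788, and 1822 of its 1831 exon bases are shared with CT010467.1. RefSeq (GRCm38.p6) names the stretch from 39846354 to 39848202 Rn18s-rs5, an 18S rRNA related sequence, and lists Gm42418 among its synonyms. The first 1244 bases of the 1849-base CT010467.1 transcript are the exact reverse complement of the first 1244 bases of the Gm42418 transcript. The next 2 lines show this where it can be read by eye: the first 100 bases of the CT010467.1 transcript, and the bases of Gm42418 (positions 1145 to 1244) that pair with them, both 5′ to 3′ in GENCODE vM21, with the 12 outermost paired bases in capitals. As background, these capitals in Gm42418 are the known last bases of mature 18S rRNA, so the annotated strand of CT010467.1 is antisense to that rRNA here, although the row is typed rRNA.
CT010467.1: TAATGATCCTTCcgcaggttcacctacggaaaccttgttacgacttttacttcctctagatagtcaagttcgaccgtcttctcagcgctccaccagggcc
Gm42418: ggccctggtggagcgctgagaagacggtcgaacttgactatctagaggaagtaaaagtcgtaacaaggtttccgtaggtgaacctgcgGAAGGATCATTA

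AY036118, a noncoding row of 923 bp, lies wholly inside CT010467.1 on the same strand and had 0 counts in all 4 libraries. The counting command sets no option for pairs that touch more than 1 gene, so pairs that fall in both rows are not counted for either. Of the exon bases of CT010467.1, 1543 lie outside AY036118, and from which of its bases its counts came was not tested. Gm26917 (ENSMUSG00000097971.3, plus strand, 39843013 to 39846341) ends 11 bp before CT010467.1 starts, and no annotated row lies opposite it. Over all GENCODE transcripts, BLAST found no alignment of Gm26917 to another gene.

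Rmrp (ENSMUSG00000088088.1) is a 271-base row on the minus strand of chromosome 4, from 43492788 to 43493058. Ccdc107 (ENSMUSG00000028461.12), a gene for a coiled-coil protein, runs on the plus strand from 43492900 to 43495921. Only its first exon block, 124 bp from 43492900 to 43493023, overlaps Rmrp, and it lies entirely within it. The next block starts 303 bp past the end of Rmrp. In RefSeq, Ccdc107 starts at 43493340 and does not reach Rmrp. The Rmrp sequence is shown with the 124 bases that are complementary to this exon (positions 36 to 159, counted from the 5′ end) in capitals, since RNA of either strand there differs only in the row that receives it.
Rmrp: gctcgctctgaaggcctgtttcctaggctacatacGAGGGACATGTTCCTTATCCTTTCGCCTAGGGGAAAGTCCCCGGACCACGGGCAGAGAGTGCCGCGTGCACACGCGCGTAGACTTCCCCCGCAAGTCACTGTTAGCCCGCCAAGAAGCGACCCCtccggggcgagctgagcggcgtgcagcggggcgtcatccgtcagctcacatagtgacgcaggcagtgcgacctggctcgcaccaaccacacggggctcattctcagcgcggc

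By the RefSeq starts, the region between the genes is upstream of both. In GENCODE it lies within Ccdc107, between its first exon block and the next. RefSeq's window for the Ccdc107 start, chr4:43493115-43493414 on the plus strand (GRCm38.p6), lies 57 to 356 bp upstream of the 5′ end of Rmrp. Mouse genes that RNA polymerase III transcribes from an external promoter often carry an octamer in a distal element. The octamer ATGCAAAT, searched on both strands (ATTTGCAT on the other), occurs 1 time here, 216 bp upstream of Rmrp, and is in capitals in the window. It occurs in 570 of 32851 RefSeq windows of the same length (1.74%). The match describes the letters only. Windows were present for 2 of the 7 rows, Ccdc107 and Lars2.
Ccdc107 window: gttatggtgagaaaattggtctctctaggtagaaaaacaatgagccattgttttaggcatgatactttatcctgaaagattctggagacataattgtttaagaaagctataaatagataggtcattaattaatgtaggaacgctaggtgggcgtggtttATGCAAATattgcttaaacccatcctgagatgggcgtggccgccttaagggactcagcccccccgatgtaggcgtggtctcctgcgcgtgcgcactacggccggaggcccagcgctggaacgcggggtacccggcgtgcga

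Gm23935 (ENSMUSG00000076258.1, chromosome 16, 11144125 to 11144181, plus strand) is a 57-base row typed miRNA, in an intron of Zc3h7a, which runs on the other strand. Its sequence belongs to a set of near copies. Gm24245 and Gm24270 are identical to it, and Gm24187 differs at 1 base, shown in capitals.
Gm23935: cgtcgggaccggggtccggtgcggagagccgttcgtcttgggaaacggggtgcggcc
Gm24187: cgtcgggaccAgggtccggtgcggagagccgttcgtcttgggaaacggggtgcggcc

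The identical rows Gm24245 and Gm24270 had 0 counts in all libraries and 2, 1, 0 and 0, and Gm24187 had 0, 3, 0 and 1. Pairs placed at several sites are not counted under the stated command, so the division of counts among these copies is uncertain. Lars2 (ENSMUSG00000035202.8, plus strand, 123366927 to 123462666, 11089 exon bases) encodes the mitochondrial leucyl-tRNA synthetase. Its coding transcript of 3894 bases aligned to 2 other genes, over 72 bases at 98.6% identity to Gm15564 and over 196 bases at 80.1% to AA474408. Gm15564 had 3, 3, 0 and 3 counts and AA474408 39, 15, 29 and 20.

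**Figure D1:**
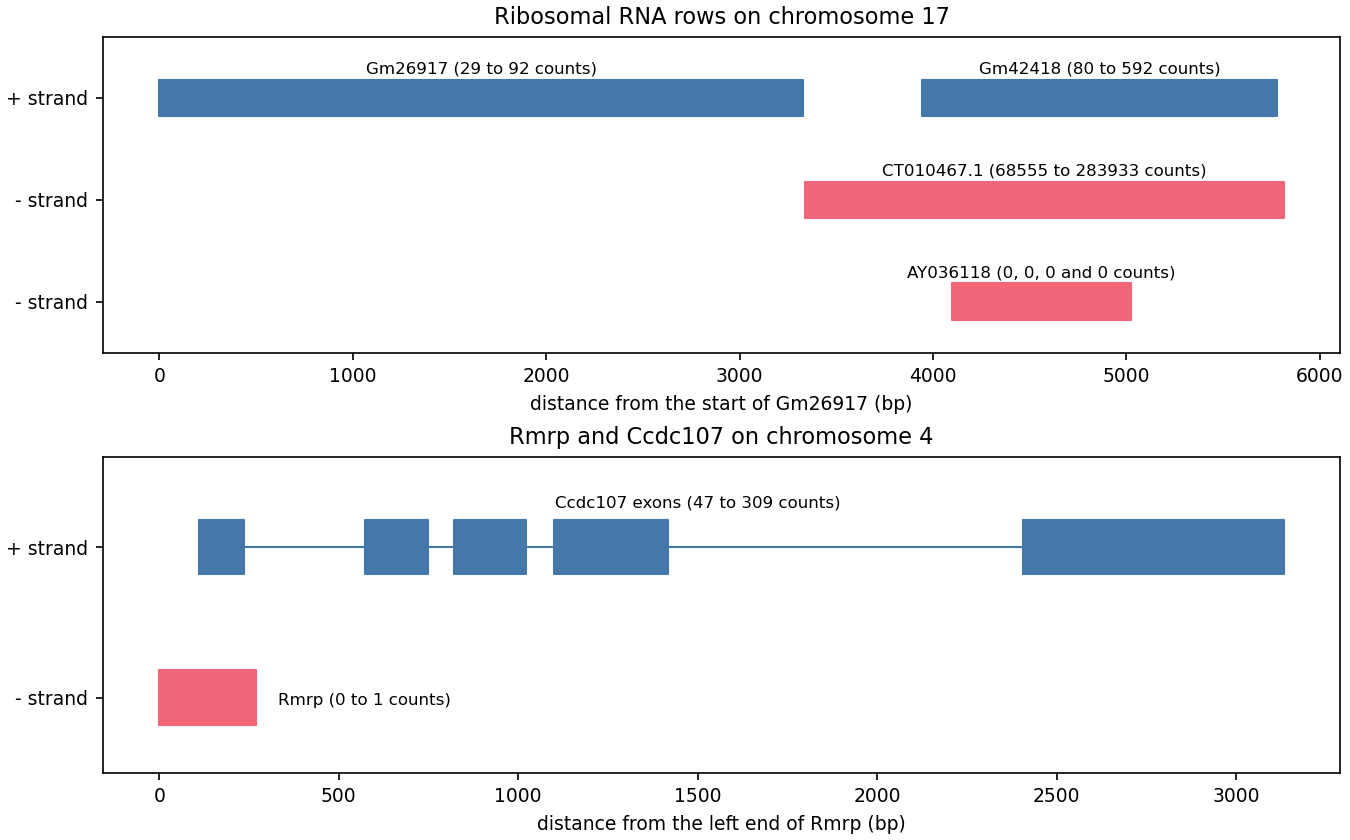
Exons of the rows drawn to scale against distance in base pairs, by strand, with the range of counts over the 4 libraries. The upper panel has the chromosome 17 rows, with CT010467.1 and AY036118 on the minus strand, and gaps of a few bases within CT010467.1 are not visible at this scale. The lower panel shows the first exon block of Ccdc107 inside Rmrp.

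CT010467.1, typed rRNA and antisense to Gm42418, held the most counts of any row in every library. It had 102954, 68555, 110661 and 283933 counts in replicates 1 to 4. Of all counts it took 4.53% in replicate 1 (4.50 to 4.56, a 95% Wilson interval), 3.25% in replicate 2 (3.22 to 3.27), 5.02% in replicate 3 (4.99 to 5.05) and 15.9% in replicate 4 (15.8 to 16.0). Such intervals hold only the error of counting, because without molecular identifiers several read pairs can stem from 1 molecule. Replicate 4 stood well above the others, which lay between 3.25% and 5.02%. The next row in each library was Phykpl, an enzyme gene, which CT010467.1 exceeded 1.65-, 1.15-, 1.77- and 6.96-fold. On the CPM scale CT010467.1 in replicate 4 was 3.73 times the mean of the other libraries.

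Gm42418, on the strand opposite CT010467.1, had 189, 80, 88 and 592 counts. That is 83.2, 37.9, 39.9 and 331 CPM, again with replicate 4 apart, at 6.18 times the mean of the others. Replicate 1 stood above replicates 2 and 3, whose intervals overlap (30.4 to 47.1 and 32.4 to 49.2 CPM). As a share of the pair's counts Gm42418 made up 0.183% (Wilson interval 0.159 to 0.211), 0.117% (0.0937 to 0.145), 0.0795% (0.0645 to 0.0979) and 0.208% (0.192 to 0.225). The share did not follow the level of CT010467.1, which was the second highest in replicate 3, where the share was smallest. Replicates 1 and 4 had overlapping intervals for this share, both above those of replicates 2 and 3.

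Per exon base CT010467.1 exceeded Gm42418 in 4 of 4 libraries. The log2 ratio was 8.66, 9.30, 9.86 and 8.47, with a mean of 9.07 ± 0.633 (SD, n = 4). It uses all 2466 exon bases of CT010467.1, of which 1543 lie outside AY036118, so the ratio may be understated.

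Gm26917, just outside this pair, had another order. Its counts were 29, 46, 92 and 52, or 12.8, 21.8, 41.7 and 29.1 CPM. Replicate 3 was highest, and replicate 1 lowest. The interval of replicate 3 (34.0 to 51.2 CPM) overlaps that of replicate 4 (22.2 to 38.2) and not those of replicates 1 and 2. In replicate 4, where CT010467.1 and Gm42418 were highest, Gm26917 stood at 1.15 times the mean of the other libraries.

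Of other rows annotated as rRNA, 353 held only 65, 61, 59 and 38 counts together. Rn5s, for the 5S rRNA that RNA polymerase III makes, had 0 counts in all libraries. The mitochondrial rRNA rows mt-Rnr1 (50, 61, 21 and 44) and mt-Rnr2 (78, 80, 44 and 81) were lowest in replicate 3.

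The Rmrp row was nearly empty, with 1, 0, 0 and 0 counts, which on these tables does not show that the RNA was absent. Ccdc107, on the other strand, had 47, 55, 58 and 309 counts, or 20.7, 26.0, 26.3 and 173 CPM. Replicates 1 to 3 had overlapping intervals, from 15.6 to 34.0 CPM in all, and replicate 4 lay at 155 to 193. In replicate 4 the row was thus 7.11 times the mean of the others. Against the 3 counts that a count of 0 allows per library, Ccdc107 counts were at least 18.3-, 19.3- and 103-fold higher than Rmrp in replicates 2, 3 and 4, or at least 3.21-, 3.39- and 18.0-fold per exon base. In replicate 1 Rmrp made up 2.08% of the pair's counts (Wilson interval 0.369 to 10.9).

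The log2 ratio of Ccdc107 to Rmrp per exon base, with 0.5 count added, was 2.47, 4.28, 4.36 and 6.76 (mean 4.47 ± 1.76, SD, n = 4). It was positive in 4 of 4 libraries, and its size rests on the count added, at 6.31 with 0.1. A row total does not show where in a gene its pairs lie. Whether the pairs of Ccdc107 came from the 124 bases shared with Rmrp or from its other 1423 exon bases was not tested.

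Gm23935 had 124, 50, 73 and 134 counts, or 54.6, 23.7, 33.1 and 75.0 CPM. Replicates 1 and 4 were high, with intervals that meet (45.8 to 65.1 and 63.4 to 88.9 CPM), and replicates 2 and 3 low, also with overlapping intervals. Lars2 had 27, 17, 12 and 44 counts, or 11.9, 8.05, 5.44 and 24.6 CPM. Its replicate 4 interval, 18.4 to 33.1 CPM, lies above those of replicates 2 and 3 and does not reach the 17.3 CPM at the top of that of replicate 1. With 12 to 44 counts it is the thinnest of the 6 rows outside Rmrp.

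Per length, as TPM (the count over exon length, scaled to the same sum in each library), the rows came in the order CT010467.1 (44964 ± 38435), Gm23935 (1253 ± 653), Gm42418 (105 ± 123), Ccdc107 (62.0 ± 76.9), Gm26917 (12.0 ± 5.59), Lars2 (1.74 ± 1.24) and Rmrp (0.610 ± 1.22; SD, n = 4). TPM of CT010467.1 may be understated, since its length includes the bases shared with AY036118. The place of Gm23935 rests on its length of only 57 bases, and TPM of so short a row is uncertain. By total count it ranked 2030 of all rows, below Gm42418 (1248) and Ccdc107 (1822). Gm42418 (30.8 to 287 TPM) and Ccdc107 (20.1 to 177) overlapped in range, although Gm42418 was higher within each library. Lars2 and Rmrp cannot be ordered, since 3 counts of Rmrp would be 7.31 to 9.83 TPM. The other neighbours in this order did not overlap in range.

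**Figure D2:**
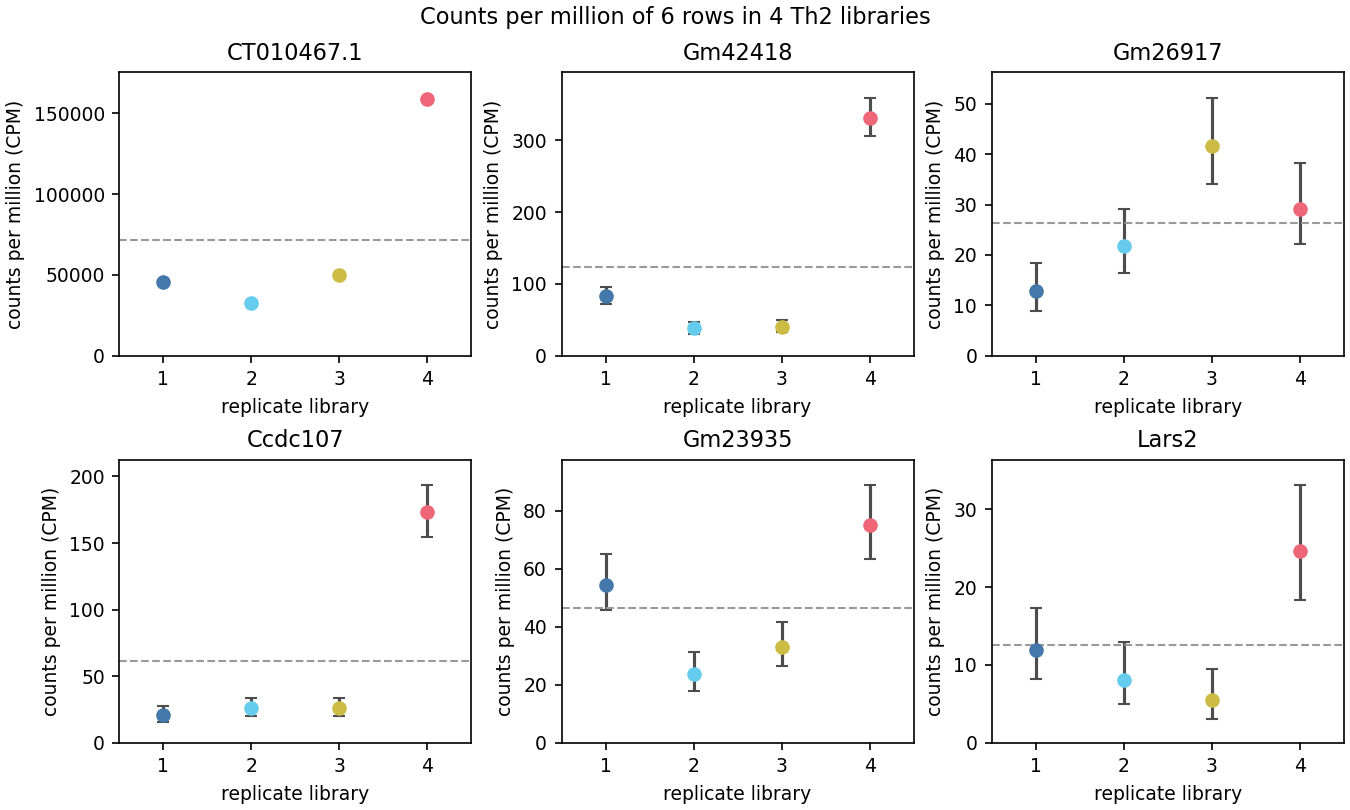
CPM of the 6 rows other than Rmrp against replicate library, 1 panel per row with its own axis from 0. Points are single libraries, bars are 95% Wilson intervals of counting error, and the dashed line is the mean of the 4. Replicate 4 (red) is highest in each panel except that of Gm26917, where replicate 3 is.

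The 7 rows together held 4.55%, 3.26%, 5.03% and 16.0% of counts, a mean of 7.20% ± 5.89 (SD, n = 4), or 4.28% without replicate 4. Leaving them out of the total raised the CPM of every other row by 0.07, 0.05, 0.07 and 0.25 on the log2 scale in replicates 1 to 4. The mean shift was 0.11 ± 0.0945 (SD, n = 4), and 0.063 without replicate 4. CT010467.1 alone gave 0.25 in replicate 4. On the TPM scale, leaving out the 7 rows raised every other row by 0.16 in replicate 4 and by 0.03 to 0.05 in the others (log2).

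On the total outside the 7 rows, replicate 4 stood at 4.24 times the mean of the other libraries for CT010467.1, 7.03 for Gm42418, 8.10 for Ccdc107, 3.32 for Lars2 and 2.30 for Gm23935. For Gm26917 replicate 3 was at 1.87 and replicate 4 at 1.30. The library in which each of these 6 rows was highest was the same by CPM, TMM-normalized CPM, DESeq2 size factors and CPM outside the 7 rows. Without replicate 4, the log2 gap between the highest and the lowest library moved from 2.29 to 0.63 for CT010467.1, from 3.13 to 1.14 for Gm42418, from 3.06 to 0.35 for Ccdc107 and from 2.18 to 1.13 for Lars2. Without replicate 1, that of Gm26917 moved from 1.71 to 0.94.

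**Figure D3:**
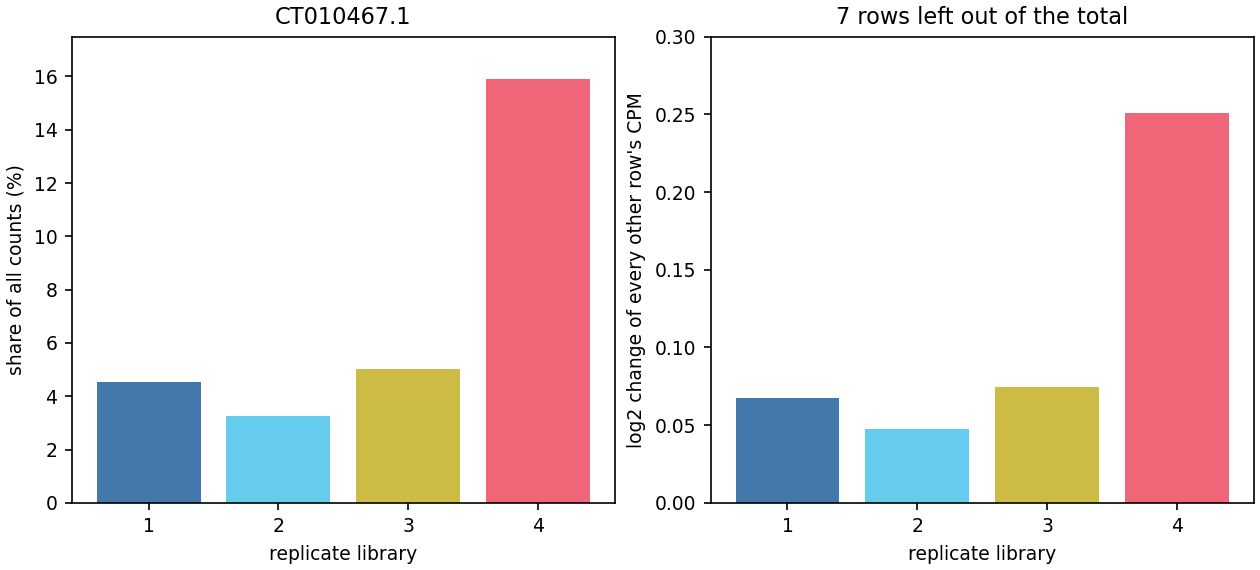
The left panel gives the share of all counts in CT010467.1 (%) for each replicate library, from 3.25% to 15.9%. The right panel gives the log2 change in the CPM of every other row when the 7 rows leave the total, from 0.05 in replicate 2 to 0.25 in replicate 4.

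Rows with the most similar pattern were found among 4353 rows outside the members with a mean of at least 20 counts. Likeness was the Euclidean distance between profiles of log2(CPM + 1) over 4 libraries, each centred on its own mean, with CPM on the total outside the members. For CT010467.1, whose distance from a flat profile was 1.89, the nearest were Gm20628 (0.384), Rps6kb2 (0.665), Gm44454 (0.683), Olfr77 (0.820) and Gm26623 (0.884). The same 5 rows were the nearest to Ccdc107, in another order and from 0.591 (Gm20628) to 1.45 (Gm26623). For these libraries this is a description over 4 values.

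Of those 5, Gm20628 and Gm44454 lie opposite replication-dependent histone genes, whose mRNAs end in a stem-loop without a poly(A) tail. Gm20628 shares 488 bp with Hist2h3b and had 17, 15, 21 and 72 counts, against 2, 2, 0 and 0 for Hist2h3b. Gm44454 shares 138 bp with Hist1h2ak and had 20, 17, 16 and 42, against 0 in all libraries. Olfr77, annotated as an olfactory receptor gene, shares 387 bp with Gm7808 and had 18, 27, 29 and 66. Rps6kb2, for a ribosomal protein S6 kinase, had 40, 30, 38 and 70. It shares 39 bp with Ptprcap on the other strand, which had 32, 35, 20 and 37. Gm26623 had 15, 17, 19 and 32, and reached a mean of 20 counts only through replicate 4, so its likeness follows partly from that limit.

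All rows opposite histone genes were then examined, a set chosen after these values were seen. The 65 histone genes themselves had 15, 12, 10 and 18 counts in sum. Of 22 rows opposite them, 4 had a mean of at least 20 counts. Each of the 4 was highest in replicate 4 on the total outside the members, as were 1364 of the 4353 rows (31.3%). Besides Gm20628 (5.71 times the mean of the other libraries) and Gm44454 (3.33) they were 4930558J22Rik (1.62) and Gm44313 (1.29). Gm20628 and Gm44454 prompted the set and reached a mean of 20 only through replicate 4, so for them this outcome followed from the choice. 4930558J22Rik stood at 22.0 CPM in replicate 2, close to its 23.3 in replicate 4. Opposite other short RNA rows (rRNA, snRNA, snoRNA, scaRNA, ribozyme and misc_RNA types), 3 of 12 rows (25.0%) with a mean of at least 20 counts were highest in replicate 4. Gm17300, opposite the small nucleolar RNAs Snora73a and Snora73b, had 4742, 4209, 3789 and 2814 counts.

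The rows nearest to Lars2 were Sf3a1 (distance 0.526), Gm44454 (0.537), Cad (0.574), Ehmt2 (0.605) and Rinl (0.608). Sf3a1, a splicing factor gene, had 36, 27, 17 and 41 counts, and Cad, an enzyme gene of pyrimidine synthesis, 37, 24, 22 and 43. Sf3a1, Cad, Ehmt2 and Rinl overlap no exon on the other strand, as is the case for Lars2.

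**Figure D4:**
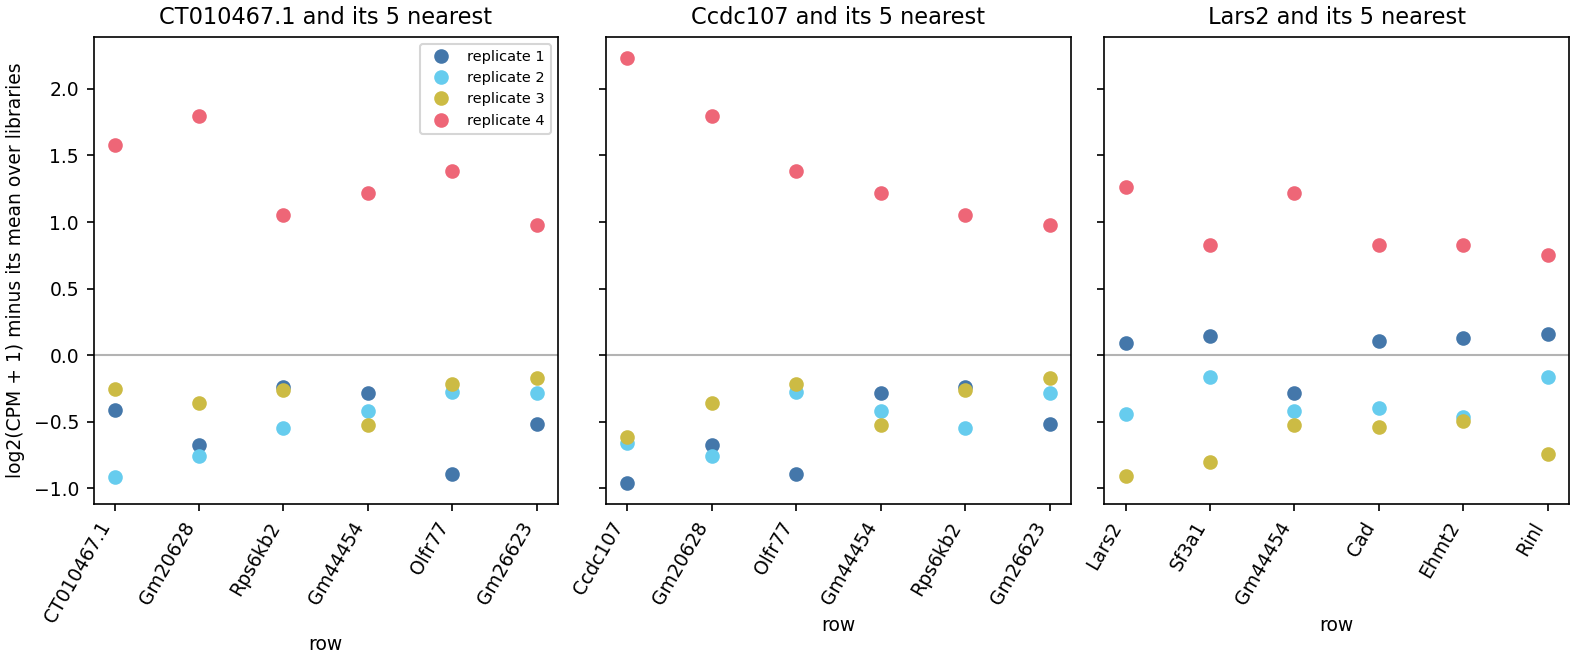
Centred log2(CPM + 1) of CT010467.1, Ccdc107 and Lars2, each with its 5 nearest rows (x axis), 1 point per replicate library, with CPM on the total outside the 7 rows. In the first 2 panels replicate 4 lies above the other 3 points of every row. In the Lars2 panel replicate 1 lies between replicate 4 and the others, close to 0, for each row except Gm44454, where it is at -0.28.

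Genes of the same pathways were taken from pathway lists and tested for variation between replicates with edgeR (goodness of fit of a model with 1 mean, Benjamini-Hochberg adjustment at 0.05). Of 5064 rows tested, 23 passed (0.454%). Of the 7 members 6 entered the test and Rmrp was too low. All 6 are among the 23, as the choice of members implies. Over the 5058 rows outside the members the median log2 gap between highest and lowest library was 0.46, with 17 past the test.

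Among the lists, that for rRNA processing had the only genes past the test, 2 of 26 tested (41 measured), with a median gap of 0.61. Ncl, for nucleolin, an abundant nucleolar protein, stood at 110, 99.0, 64.8 and 126 TPM (edgeR adjusted p = 7.72e-05). Npm1, for the nucleolar chaperone nucleophosmin, stood at 393, 334, 208 and 375 TPM (edgeR adjusted p = 0.000369). Both were lowest in replicate 3, not apart in replicate 4 as CT010467.1 was. Low values in replicate 3 were not particular to this list. The median log2 difference of replicate 3 from the other libraries was -0.42 here, -0.43 for the Th2 genes and -0.08 over tested rows outside the members. Of rows past the test in none of the lists, Eef1a1 (1195, 869, 661 and 928 counts) and Eef2 (580, 448, 305 and 476) were also lowest there. In contrast, mt-Nd4 (1185, 1077, 2519 and 1758) was highest there. Without replicate 3, 0 genes of the rRNA processing list passed, and without replicate 4, 1 did. With a common dispersion, or with all rows that have a count, 0 passed.

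None passed among the proteins of RNase MRP and RNase P (1 of 11 tested, 0 at an unadjusted edgeR p under 0.05), which share most subunits. Levels on their rows were low, with Pop5 at 15.7 ± 3.14, Pop1 at 2.75 ± 0.721 and Pop7 at 2.31 ± 1.13 TPM (SD, n = 4). No row lies opposite Pop5, Pop1 or Pop7. Given the strand question above, low rows do not show that these genes were little expressed. Of RNA polymerase I and its factors 6 of 15 were tested and 0 passed (0 unadjusted), with a median gap of 0.62. The subunit genes Cd3eap (59.1 ± 5.68, sharing 106 bp with Ercc1) and Polr1c (8.87 ± 2.30) and the rDNA-binding factor gene Ubtf (8.11 ± 1.61 TPM) were the highest. For RNA polymerase III 8 of 28 were tested and 0 passed (0 unadjusted), with a median gap of 0.40. Among its highest rows, Snapc3 (327 ± 30.2) and Gtf3a (95.8 ± 9.07 TPM) each share exon bases with a gene of the opposite strand.

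Of the genes for poly(A) tailing and decay of noncoding RNA 10 of 16 were tested and 0 passed (1 unadjusted), with a median gap of 0.56. The exosome genes Exosc9 (553 ± 30.5, sharing 510 bp with Ccna2) and Exosc3 (64.6 ± 8.11, sharing 53 bp with Dcaf10) and the cleavage factor gene Cpsf2 (27.4 ± 2.96 TPM) were highest. Of the mitochondrial aminoacyl-tRNA synthetases other than Lars2 4 of 16 were tested and 0 passed (0 unadjusted), with a median gap of 0.53. Hars2 (208 ± 13.2, sharing 195 bp with Hars), Fars2 (22.0 ± 4.44) and Iars2 (8.55 ± 1.49 TPM, sharing 2034 bp with Rab3gap2) led this list, and Aars2 had 3, 1, 4 and 11 counts.

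The 17 listed rows of other noncoding RNAs without a poly(A) tail were at or near 0, as was Rmrp, and none reached the test. Whole types were not all so low. The snRNA rows held 928, 870, 892 and 606 counts in sum, and the snoRNA rows 489, 486, 467 and 308. The misc_RNA rows held 1295, 1194, 840 and 525, and the scaRNA rows 4, 0, 1 and 2. Rpph1, the RNA subunit of RNase P and a relative of Rmrp, had 0, 0, 0 and 1 counts, Rn7s1 1, 1, 0 and 1 and Snora73b 3, 0, 0 and 0. Rn7sk, Rn7s2, Terc, Rny1 and Rny3 had 0 in all. No row lies opposite Rpph1, Rn7sk or Terc, so for these the tables hold no opposite-strand count such as that of Ccdc107. Of the other rRNA rows mt-Rnr1 and mt-Rnr2 were tested, with edgeR adjusted p = 0.492 and 0.572.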

How the data were processed

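The values used are the deposited raw counts, 1 whole number of assigned read pairs for each gene and library. Per the file headers they were made by featureCounts 1.4.6-p4 with paired reads, both ends mapped, strand setting 1, exons summed by gene and GENCODE vM13, with neither multiple placement nor multiple overlap allowed. The labels give mm10. Per the file headers, whose input file name holds STAR, that aligner was used, and its version is not known here. The deposited exon length per gene (bp) was used for TPM. GENCODE vM21 (same build) gave names, types and transcript sequences, and 224 of 50600 rows had no name in it.

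The members, lists, tests and the rule for named genes were chosen with earlier results of these data known. Named are the members, rows overlapping them, list genes past the test or else the 3 highest by TPM, and the 5 rows nearest to CT010467.1, Ccdc107 and Lars2 among rows with a mean of at least 20 counts. AA474408, Phykpl, the copies of Gm23935 and the rows opposite histone and small nucleolar RNA genes were picked with their values in view. So were list genes named at 0, Aars2, Eef1a1, Eef2, mt-Nd4, the cell markers and the pairs of opposite-strand rows.

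Variation between replicates was tested across all rows in edgeR 4.0.16 (limma 3.58.1, R 4.3.3; TMM, filterByExpr, trended dispersion), on code tested on simulated data. Alternatives were DESeq2 1.42.0 size factors, all rows with a count, a common dispersion, the members removed, other pseudocounts and scalings, and leaving out each replicate. Other tools were BLAST 2.17.0, SciPy 1.17.1, numpy 2.4.6, pandas 2.3.3 and Matplotlib 3.10.9 in Python 3.11.15. Signal tracks were not analysed here. Some list genes are not reported here. A sign-flip test of the strand ratios is not reported, since with 4 libraries of 1 sign its p is fixed.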

Additional observations from a re-analysis of the deposited data

Results flagged for a closer look

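Of 22 values reported per library, 9 had 1 library far from the other 3, in each case replicate 4 on the high side. Chance gives such a gap in about 1 of 20 groups, but that rate does not hold for rows picked by their pattern over these libraries. The nearest rows were picked for likeness to profiles that are high in replicate 4. Of them, Gm20628, Gm44454 and Gm26623 reached the mean of 20 counts only through replicate 4. The rows were chosen for differing between libraries or for likeness to such rows, so these are not separate observations. Among the members they were CT010467.1 at 158980 CPM, Gm42418 at 331 CPM, Ccdc107 at 173 CPM and the share of counts in the 7 rows at 16.0%. Among the nearest rows, on the total outside the members, they were Gm20628 at 47.97 CPM, Rps6kb2 at 46.6, Gm44454 at 28.0, Olfr77 at 44.0 and Gm26623 at 21.3.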

How the results depend on the processing

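Both opposite-strand log2 ratios kept their sign under each alternative run. They were positive in every library, so leaving out 1 replicate could not change the sign. In size, CT010467.1 over Gm42418 ranged from 8.81 to 9.50, and Ccdc107 over Rmrp from 3.70 (without replicate 4) to 6.98 (raw counts). The number of rows varying between replicates in edgeR was 23, and 23 with DESeq2 size factors, 20 with the members removed, 32 with a common dispersion and 15 with all rows that have a count. Leaving out 1 replicate gave 7 (without replicate 4) to 20, with 12 without replicate 3. For rRNA processing 2 genes passed, 0 with a common dispersion, 0 with all rows that have a count and 0 to 2 with 1 replicate left out. The cause was not tested. The share of TPM in the 7 rows was 4.64%, against 7.20% of counts. Depth limits Lars2 and Rmrp most, and the tables give no position within a row. No paired analysis was possible because there is 1 group.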
